A study of Mus musculus with 14 samples.

Results

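The neuregulins and the ErbB receptors were described here in mouse spinal cord, from the RNA level and the exon use of whole cord and from the reads crosslinked to the splicing regulators NOVA1 and NOVA2. Of the 7 genes chosen by symbol (Nrg1, Nrg2, Nrg3, Egfr, Erbb2, Erbb3 and Erbb4), 6 were found among the 19215 genes of both RNA-seq tables. The RNA level of Nrg2 was not analysed here. Of the 13189 cassette exons tabulated, 1 carried the Entrez number of a member, an exon of Egfr. All 7 genes were present among the 23640 gene models on which CLIP reads were counted.

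The RNA-seq comprised 2 libraries of poly(A)-selected RNA from whole spinal cord (WSC), 1 from a male and 1 from a female 12-week-old mouse carrying the Tg(SOD1)2Gur/J transgene, which expresses wild-type SOD1, on a B6/SJL background. The CLIP experiments, in which RNA crosslinked to a protein by UV light is immunoprecipitated and sequenced, used 3-month-old C57BL/6 mice. Motoneuron (MN) libraries came from mice hemizygous for Chat:GFP-Nova, a BAC transgene that places GFP-tagged NOVA2 under the Chat gene of cholinergic neurons, with 4 libraries from line #6 and 4 from line #17, each of pooled cords. The 4 WSC libraries came from wild-type cords with an antiserum against endogenous NOVA proteins. The MN and WSC libraries differed in antibody, in the protein precipitated and in genotype as well as in cell type, and these cannot be told apart. WSC also contains MNs.

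Neuregulins are ligands with an EGF-like domain that bind ErbB3 or ErbB4, receptor tyrosine kinases that signal as dimers. ErbB2 binds no known ligand and serves as the partner of the other receptors, and ErbB3 has little kinase activity of its own. In the nerve-muscle system, NRG1 made by motoneurons acts on Schwann cells and on the neuromuscular synapse, NRG2 and NRG3 are mainly neuronal, and ERBB4 is well known from inhibitory interneurons. EGFR binds EGF, TGF-alpha and related ligands rather than neuregulins. NOVA proteins are neuronal and bind the motif YCAY, whose Y stands for a pyrimidine, so that its forms are TCAT and TCAC and, with the other pyrimidine in front, CCAT and CCAC.

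The positions covered by most CLIP reads lay in introns or beyond the coding sequence in each of the members with enough reads to rank. They are shown here because the differences between MN and WSC described further on rest on reads of these kinds. All sequences are of the transcribed strand in mm9, 5′ to 3′, with every YCAY in capitals, and those in or near a 3′ UTR are limited to the bases around the most covered position.
Downstream of Nrg1, most covered in MN (chr8:32924738-32924767, minus strand): tttaCCACtTCACtccttgctgtaggaaac
Downstream of Nrg1, most covered in WSC (chr8:32923446-32923475, minus strand): gcattctcTCATtctggctactcttctgaa
Erbb4, most covered in MN, 3′ UTR (chr1:68079724-68079753, minus strand): ttttttaaaaatTCATcTCATgtacgcatc
Erbb4, most covered in WSC, 3′ UTR (chr1:68080561-68080590, minus strand): agcaCCATtTCACtgtaatgaaagtccgtg
Egfr, most covered in WSC, 3′ UTR (chr11:16812589-16812618, plus strand): ttcctgtctTCATtTCATgaagtaaacaaa
Nrg3, most covered in MN, intron (chr14:40049087-40049187, minus strand): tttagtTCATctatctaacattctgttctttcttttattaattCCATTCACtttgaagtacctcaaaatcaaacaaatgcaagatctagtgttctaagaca
Nrg3, most covered in WSC, intron (chr14:40267755-40267855, minus strand): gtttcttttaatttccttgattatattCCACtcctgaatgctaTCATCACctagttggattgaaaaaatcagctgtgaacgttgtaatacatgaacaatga

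The letters were read against the same count over 25583 windows of 101 nt tiled across the models of the members other than Nrg2, of which 79.7% held at least 1 YCAY on the transcribed strand. The window of 101 nt around the Nrg1 position most covered in MN held 6, a number reached by 1.11% of the tiled windows. The Erbb4 position most covered in MN held 5, reached by 3.39% of windows. The other 5 positions shown held 3 each, a number reached by 24.1% of windows.

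In WSC RNA, the order of level was Nrg1, Erbb4, Erbb3, Nrg3, Egfr and Erbb2. Levels are in RPKM, reads scaled to the exon length of the gene and to the reads on all genes, so they can be compared between genes. The male library held 72006019 reads on genes and the female library 65625173. No test between libraries was made, since each sex had 1 mouse, and the 95% Poisson intervals cover counting error only.

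Among the ligands, Nrg1 had the highest level of the members. It had 5374 reads in the male library (9.53 RPKM, 9.28 to 9.79) and 6390 in the female (12.4 RPKM, 12.1 to 12.7), a mean of 11.0 ± 2.05 RPKM (SD, n = 2), which placed it 5748th of 19215 genes. Nrg3 had 1345 and 1054 reads and a mean of 3.27 ± 0.348 RPKM. Nrg1 was lower in the male library, at a male over female ratio of 0.766 (0.739 to 0.795), and Nrg3 higher, at 1.16 (1.07 to 1.26).

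Among the receptors, Erbb4 was highest, with 2681 reads (8.65 RPKM) in the male and 2006 (7.10 RPKM) in the female library, a mean of 7.87 ± 1.09 RPKM. Erbb3, the partner receptor expressed in glia of the oligodendrocyte and Schwann lineages, had 5.79 and 5.23 RPKM, a mean of 5.51 ± 0.397. Egfr, known from astrocytes and progenitors, had 3.18 and 2.91 RPKM, a mean of 3.05 ± 0.194. Erbb2, the receptor without a ligand, was lowest, with 201 reads (0.550 RPKM) and 119 reads (0.357 RPKM), a mean of 0.453 ± 0.136. The mean of Egfr was 6.72 times that of Erbb2. Nrg3 and Egfr were the only neighbours in this order whose values overlapped between libraries, so their order is not settled by these data.

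**Figure D1:**
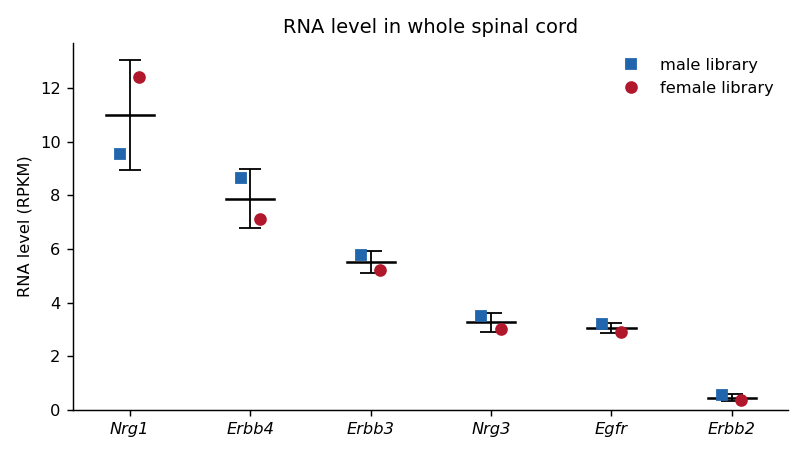
RNA level of the 6 members found in the RNA-seq tables, in RPKM, in the male (square) and the female (circle) library of whole spinal cord, with the mean and SD of the 2 as a black line and bar. Nrg1 is highest at 9.53 and 12.4 RPKM and is the only member with the higher value in the female library, whereas Erbb2 is lowest at 0.550 and 0.357 RPKM.

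All 4 receptors had the higher value in the male library, at ratios of 1.09 for Egfr, 1.11 for Erbb3, 1.22 for Erbb4 and 1.54 for Erbb2. Across the 14219 genes with at least 10 reads in both libraries, 51.9% had the higher value in the male library, so that direction is common. Of these genes, 9.61% differed by more than 1.5-fold, 5.67% with the higher value in the male and 3.95% in the female. Erbb2 was the only member of 6 past that size, and its interval of 1.22 to 1.95 includes smaller ratios. Motoneuron marker genes moved the same way as Nrg1 between the libraries. All 6 listed, among them Chat and Mnx1, were lower in the male library, at ratios of 0.488 to 0.976, and their summed level was 84.0 RPKM in the male and 116 RPKM in the female. Both meningeal fibroblast markers, at ratios of 0.304 and 0.750, and both Schwann cell markers, at 0.414 and 0.829, were also lower in the male library. The part of these cell types in the Nrg1 value was not tested. Fewer cells of a type and less RNA per cell cannot be told apart in such bulk samples.

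Markers of Schwann cells, the nerve root glia in which Erbb2 and Erbb3 act as the NRG1 receptor, were near 0. Both listed (Prx and Pmp2) had low means, 0.110 and 0.174 RPKM, and their sums were 0.201 in the male and 0.366 in the female library. Oligodendrocyte markers were high, with means from 155 to 4730 RPKM over 5 genes.

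Levels in the wider pathway differed between its lists. The other ligands were low except for Tgfa, an EGFR ligand, at 16.1 ± 1.02 RPKM, and Hbegf, which binds EGFR and ERBB4, at 5.37 ± 0.608 RPKM. Nrg4, an ERBB4 ligand, had 2.40 ± 0.113 RPKM. Areg, Ereg and Epgn had 0 reads in the male library and 3, 1 and 8 in the female. The proteases that cut neuregulins or ErbB4, or the fragments left by that cut, ranged over 5 genes from 8.98 RPKM (Adam17) to 41.2 RPKM (Bace1, which cleaves NRG1). The 6 adaptors and effectors ranged from 3.23 (Shc1) to 43.7 RPKM (Grb2), and the 6 inhibitors and trafficking genes from 2.37 (Lrig3) to 44.3 RPKM (Erbb2ip, which binds the ErbB2 tail).

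The Egfr cassette exon was skipped in nearly all reads that could tell. It spans chr11:16693643-16693747 on the plus strand, between the exon that carries the start of Egfr and the next constitutive exon, and it matches an exon of the noncoding transcript ENSMUST00000139722.1. Its 105 bases, a multiple of 3, are shown because it is the only exon of a member in the tables.
Egfr cassette exon (chr11:16693643-16693747, plus strand): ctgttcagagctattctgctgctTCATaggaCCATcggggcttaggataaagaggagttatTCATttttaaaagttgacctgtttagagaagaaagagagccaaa

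In the male library, 0 reads joined the exon to a neighbour and 14 joined the neighbours directly, so inclusion was 0% (95% Wilson interval 0 to 21.5%), and a count of 0 here allows up to 21.4%. In the female library, 1 read crossed the upstream junction, 0 the downstream and 6 the skipping junction, and inclusion was 7.69% (0.808 to 46.0%). The mean was 3.85% ± 5.44 (SD, n = 2). The female library had 7 junction reads, under the 10 required in each library, so the exon was not tested. Of the 9396 exons tested between the libraries by Fisher's exact test, 4.26% passed an FDR of 0.1. With the 3 reads on the exon body counted in, the female value became 40% and the mean 20%. Over the 9396 exons, 18.4% had a mean inclusion under 10%.

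NOVA CLIP asked which of these transcripts NOVA contacted in MNs and in the cord as a whole. The MN libraries held 65961 to 871804 unique reads and the WSC libraries 2213104 to 6095995, so values in MN are less precise. CLIP values are in CPM, the sense-strand reads within the gene model relative to the reads on the genes tested, scaled by edgeR's TMM factors. A gene was called at an FDR of 0.01 by the quasi-likelihood test of edgeR with Benjamini-Hochberg adjustment. Of the 4532 genes tested, 56.6% were called, 25.6% as higher in MN and 31% as lower. The 3 neuregulins were all higher, and of the 4 receptors only Erbb4 had reads enough for the test and was lower. MN libraries were less exonic for genes at large, at 34.4 to 47.1% of reads on genes against 60.5 to 65.7% in WSC. The part of this shift in the differences of Nrg2 and Nrg3, whose reads were almost all intronic, was not tested. Overlap of CPM between MN and WSC libraries is given below for the members only, and its share over all genes was not counted.

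Nrg1 had 58, 35, 248 and 127 reads in line 6, and 27, 70, 49 and 438 in line 17. Its level in the 8 MN libraries was lowest at 556 CPM, with a median of 735 and a highest of 871, against 263, 248, 237 and 242 CPM in the 4 WSC libraries. Every MN library was above every WSC library. The log2 difference was 1.55 ± 0.091 (SE; edgeR, adjusted p = 3.08e-13), the 23rd smallest p of the genes tested. Line 6 gave 1.66 and line 17 gave 1.44, and the lines did not differ beyond their spread (log2 difference 0.21 ± 0.129, edgeR adjusted p = 0.968).

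Nrg2 was lowest at 191 CPM in MN, with a median of 293 and a highest of 408, against 131, 169, 165 and 155 CPM in WSC. The groups did not overlap. The log2 difference was 0.96 ± 0.112 (edgeR, adjusted p = 5.53e-08), with 452 MN reads in all.

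Nrg3 had the most reads within the gene model of any member, 7771 in MN and 44894 in WSC. Its level ranged from 4622 to 6255 CPM in MN, with a median of 5272, and was 2952, 3271, 3562 and 3633 CPM in WSC. The groups did not overlap here either, and the log2 difference was 0.67 ± 0.108 (edgeR, adjusted p = 7.00e-06). It was the smallest difference of the 3 neuregulins.

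Erbb4 went the other way. Its level in MN was lowest at 281 CPM, with a median of 401 and a highest of 656, against 802, 809, 912 and 874 CPM in WSC. Every MN library was below every WSC library. The log2 difference was -1.05 ± 0.113 (edgeR, adjusted p = 1.22e-08), with -1.17 in line 6 and -0.94 in line 17.

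**Figure D2:**
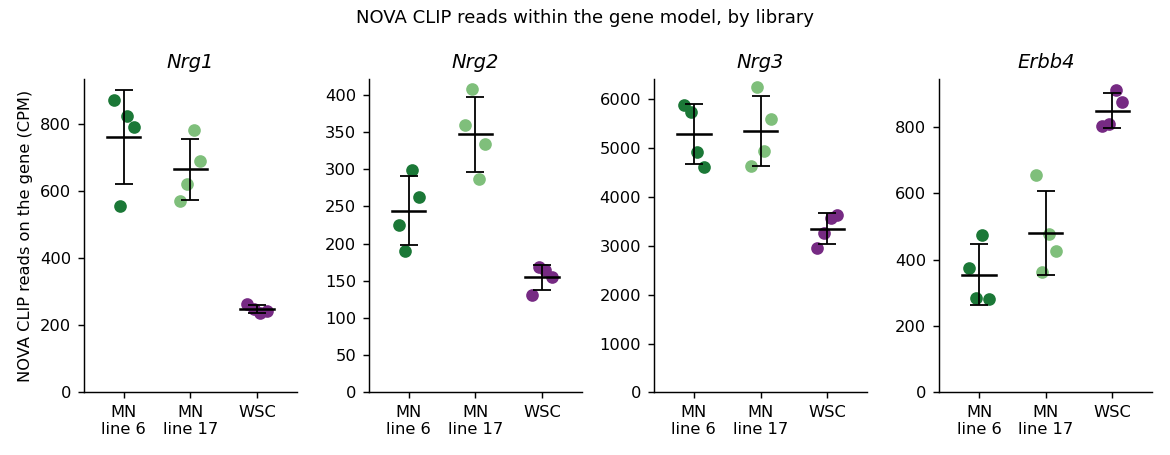
NOVA CLIP reads on the gene model of Nrg1, Nrg2, Nrg3 and Erbb4, in CPM, for each library (points) of MN line 6, MN line 17 and WSC (n = 4 each), with the mean and SD as a black line and bar. For the 3 neuregulins all 8 MN points lie above the WSC points, and for Erbb4 all 8 lie below. How many of all genes tested separate in this way was not counted.

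Markers of other cell types moved as well. The 3 motoneuron markers tested (Chat, Slc5a7 and Chodl) were higher in MN, Chat by 3.03 on the log2 scale, although the BAC carries the Chat locus. The 5 inhibitory interneuron markers (Slc6a5, Slc32a1, Gad1, Gad2 and Pax2) were all lower, with log2 differences of -4.40 to -2.18. The 2 astrocyte markers tested and 2 of 3 oligodendrocyte markers were lower too. The part of these cell types in the Erbb4 and neuregulin differences was not tested, and no RNA level in MNs is given in the files analysed here.

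The remaining receptors carried few NOVA reads. Egfr had 19 reads over the 8 MN libraries, 0 of them in 2 libraries, and 55, 76, 80 and 41 in WSC, which was 0 to 42.3 CPM in MN and 16.0 to 24.7 CPM in WSC. Erbb3 had 5 reads in MN, from 2 libraries, and 32 in WSC. Erbb2 had 0 reads in MN and 2 in WSC. Over the pooled MN libraries a count of 0 allows up to 2.07 CPM, which is above the 0.207 CPM of Erbb2 in WSC, so a difference was not detectable at this depth. None of the 3 had reads enough for the test. Without the filter on low counts, Egfr had a log2 difference of -0.70 ± 0.355 (edgeR, adjusted p = 0.134).

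Exonic NOVA reads per RNA level differed between the members. In WSC, exonic CLIP reads per kilobase of exon were 42.7 CPM for Nrg1, 26.8 for Erbb4, 11.6 for Nrg3 and 1.33 for Egfr, the order of their RPKM, and 0.362 for Erbb3. Divided by the RPKM of the gene, they were 3.89 for Nrg1, 3.55 for Nrg3 and 3.40 for Erbb4. The same ratio was 0.437 for Egfr and 0.0657 for Erbb3, and its median over 10870 genes with at least 1 RPKM was 0.227. Nrg1, Nrg3 and Erbb4 thus lay above 98.8% or more of these genes and Erbb3 above 25.2%. The RNA and CLIP libraries came from different mice of different strain backgrounds, and the exon lengths are those of separate annotations for the 2 assays.

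Among the pathway genes fixed beside the members, 10 of 25 had reads enough for the test, and 4 were called. Over all 4532 genes tested, 56.6% were called, 25.6% as higher in MN and 31% as lower. Adam19, a metalloprotease that can process neuregulins, was higher in MN, with a mean of 345 CPM in MN and 68.2 CPM in WSC and a log2 difference of 2.26 ± 0.139 (edgeR, adjusted p = 6.02e-13). Bace1 was lower, at 71.3 against 122 CPM (log2 difference -0.85 ± 0.173, edgeR adjusted p = 1.24e-04). Gab1, a docking protein for growth factor receptors, was higher by 1.05 ± 0.226 (edgeR, adjusted p = 2.46e-04), and Erbb2ip by 0.53 ± 0.140 (edgeR, adjusted p = 0.00179). The other 6 were not called, with log2 differences between -0.30 (Adam10) and 0.17 (Grb2). By list, 1 of 3 tested proteases was higher and 1 lower with a median of -0.30, 1 of 5 adaptors was higher with a median of 0.05, and 1 of 2 inhibitors was higher with a median of 0.17. The median over all genes tested was -0.07. None of the 8 other ligands had reads enough.

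**Figure D3:**
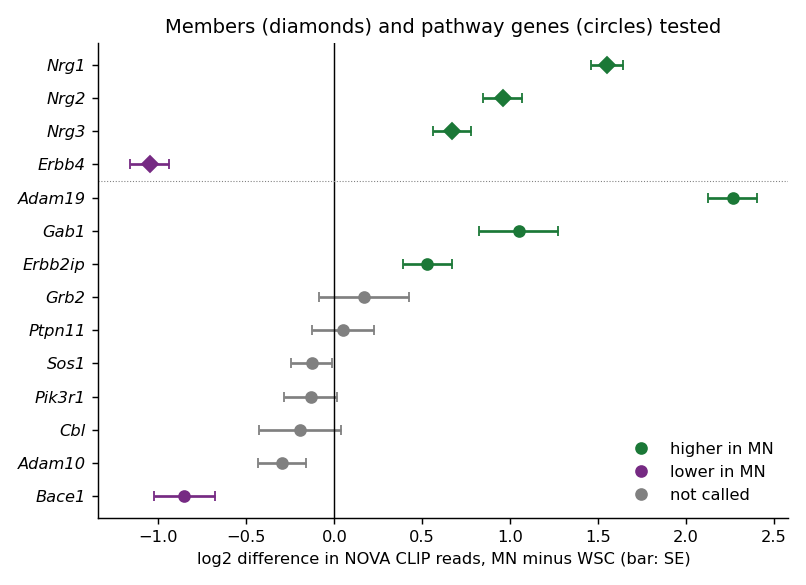
Log2 difference in NOVA CLIP reads, MN minus WSC, with its SE, for the 4 members (diamonds) and the 10 pathway genes (circles) that could be tested. Green marks genes higher in MN, purple genes lower in MN and grey genes not called at an FDR of 0.01. Adam19 (2.26) and Nrg1 (1.55) lie farthest to the right, and Erbb4 (-1.05) farthest to the left.

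The Nrg1 model in the annotation is short, and most reads assigned to its strand in this neighbourhood lay outside it. The model spans chr8:32928500-33119581 on the minus strand. Nrg1 is known to have alternative promoters spread over a very long stretch of DNA, so reads were also counted outside the model. Downstream they were counted for 10 kb, as the study's methods extend genes. Upstream they were counted as far as the next model on that strand that was not short (chr8:33119582-33998976). Short models were passed over and did not end the stretch. That these reads come from Nrg1 transcripts was not tested. The upstream stretch held 11717 MN and 17660 WSC reads and the 10 kb downstream 3686 and 11853, against 1052 and 3309 within the model. With both stretches included, the level was 7877 to 11173 CPM in MN and 2122 to 2265 CPM in WSC, and the log2 difference was 2.20 ± 0.105 (edgeR, adjusted p = 1.62e-14), the 9th smallest p of 4822 genes. In that count, 25.7% of genes were higher in MN. Only Nrg1 was given an upstream stretch, and the other genes were extended downstream alone. Its rank therefore does not compare genes counted alike. This way of counting was chosen after seeing the data.

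On the CPM scale, the stretches counted with Nrg1 differed in size of change. These CPM are relative to the exonic and intronic reads within the models of the genes tested. The CPM of the whole extended span above had another total, so the regions do not add up to it. Upstream reads had a mean of 7768 ± 778 CPM in MN (SD, n = 8) and 1312 ± 103 CPM in WSC (SD, n = 4), a 5.92-fold difference of means. Downstream reads had 2581 ± 431 and 892.5 ± 53.9 CPM, 2.89-fold. Intronic reads within the model had 475 ± 65.9 and 110 ± 11.4 CPM, 4.30-fold, and exonic reads 238 ± 84.4 and 138 ± 18.9 CPM, 1.73-fold. Groups did not overlap in the first 3 of these regions and overlapped for exonic reads. Two-sided exact permutation tests over the 12 libraries on log2(CPM + 1) gave p = 0.00404 for each of the 3, the smallest this design allows, and p = 0.0485 for exonic reads. After Benjamini-Hochberg adjustment over the 12 region tests made, the exact permutation p-values were 0.00441 and 0.0485. The total behind these CPM holds exonic and intronic reads together. MN libraries were less exonic for genes at large, at 34.4 to 47.1% of reads on genes against 60.5 to 65.7% in WSC. Scaled to the exonic reads of all genes, an alternative chosen after seeing the data, the exonic reads of Nrg1 were 2.69-fold higher in MN (exact permutation test, adjusted over 3 genes, p = 0.0242), still with overlap. The edgeR fit on exonic reads alone gave a log2 difference of 1.63 ± 0.138 (adjusted p = 1.35e-09). Intronic, upstream and downstream reads were not scaled to a total of their own. Whether introns and exons of the model differ beyond the library-wide shift was not tested.

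Of the reads in the extended span, the upstream share was 67.3 to 72.4% in MN and 48.8 to 56.4% in WSC, and the downstream share 21.0 to 27.4% and 33.9 to 40.1%. Neither share overlapped between groups (exact permutation tests, adjusted p = 0.00441 for both). Such shares were not counted over other genes. For exonic shares, 58.1% of 508 genes with at least 18 reads in every library had every MN library below every WSC library. The sequence given first above lies 3748 nt past the 3′ end of the model and was the most covered position in MN, with 315 reads over it in MN and 685 in WSC. The 101-nt window there held 2.68% of the reads of the extended span in MN and 2.89% in WSC, and all 8 MN libraries had reads in it. The position most covered in WSC, 5040 nt past the end, held 1.38% of MN and 3.12% of WSC reads. The share per library there was 1.11 to 2.33% in MN and 2.73 to 3.41% in WSC. Like the other sites shown, this position was picked by coverage in these same reads. Picking by WSC coverage favours a higher share in WSC, so no difference between groups is drawn from these shares.

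**Figure D4:**
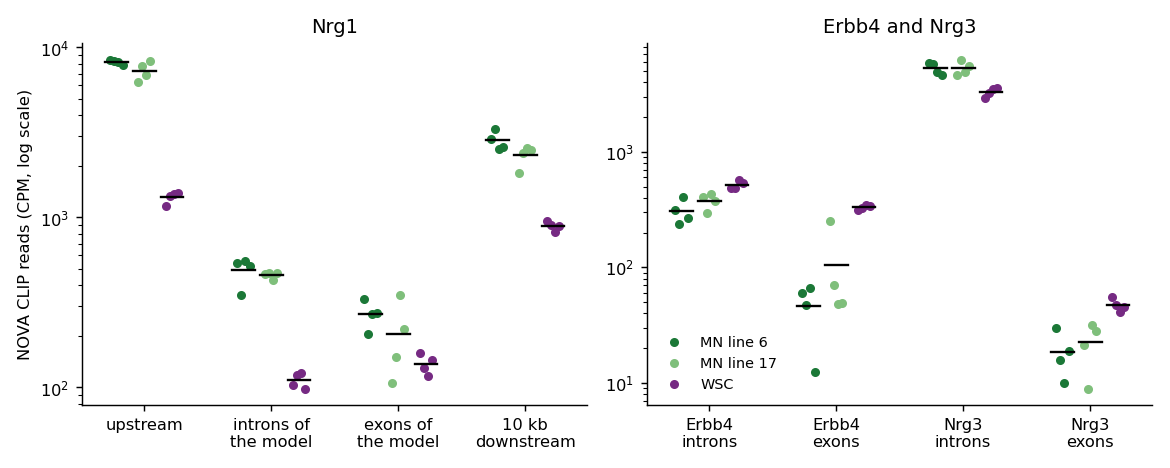
NOVA CLIP reads in CPM (log scale) by region, for each library of MN line 6, MN line 17 and WSC (n = 4 each), with the mean as a black line. CPM are relative to exonic and intronic reads within the models of the genes tested, and MN libraries were less exonic at large. In the stretches counted with Nrg1 (left), the MN mean is higher in every region, with 7768 against 1312 CPM upstream of the model and overlap for exonic reads alone. In Erbb4 and Nrg3 (right), exonic reads are lower in MN on this scale, with 76.0 against 331 CPM and 20.6 against 47.1 CPM, and intronic reads of Nrg3 are higher.

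On the CPM scale, reads of Erbb4 fell more in exons than in introns. MN libraries were less exonic at large, and the intronic reads were not scaled to a total of their own. Whether exons fell more beyond that shift was not tested. Exonic reads had a lowest, median and highest of 12.5, 54.4 and 254 CPM in MN and a mean of 331 ± 13.4 CPM in WSC. Intronic reads had 342 ± 72.2 CPM in MN (n = 8) and 518 ± 40.3 CPM in WSC (n = 4). Neither overlapped (exact permutation tests, p = 0.00404, adjusted p = 0.00441). The exonic share of Erbb4 reads was 4.44 to 36.4% in MN and 38.0 to 40.2% in WSC. Of the 508 genes with at least 18 reads in every library, the lowest count of Erbb4, 58.1% had every MN share below every WSC share, so Erbb4 was 1 of many in this. Scaled to the exonic reads of all genes, the exonic mean of Erbb4 in MN was 0.339 of that in WSC (exact permutation test, adjusted p = 0.0242), and the highest MN library then lay within the WSC range.

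The Erbb4 3′ UTR carried the most covered positions in both groups. The position most covered in WSC had 964 reads over it there and 10 in MN, and its window held 8.75% of the WSC reads and 1.65% of the MN reads of the gene. The position most covered in MN had 13 reads over it in MN and 403 in WSC, and its window held 2.47% and 4.24%. Only 6 of 8 MN libraries had reads in the latter window and 3 in the former, so shares in MN rest on few reads. In Egfr, the 3′ UTR position given above had 83 of the 252 WSC reads in its window, 32.9%, with 30.3 to 41.5% per library.

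Nrg3 reads were almost all intronic. Introns held 98.9% of its reads in MN and 96.1% in WSC, spread over the long early introns. Its exonic reads, 31 in MN and 622 in WSC, were lower in MN at 20.6 ± 8.89 against 47.1 ± 6.19 CPM (exact permutation test, p = 0.00404, adjusted p = 0.00441), while intronic reads were higher at 5306 ± 624 against 3308 ± 316 CPM with the same p-values. Scaled to the exonic reads of all genes, the exonic difference of Nrg3 no longer passed the test, at 0.668 of the WSC mean with overlap (exact permutation test, adjusted p = 0.0687). The intronic position most covered in MN, shown above, lies 237239 nt from the 5′ end of the model, and its window held 0.997% of the MN reads and 0.618% of the WSC reads, from all 12 libraries. The one most covered in WSC, 18571 nt from the 5′ end, held 0.460% and 0.725%. No position of Nrg3 thus held a large share of its reads. Nrg2 was alike, with 98.3% of MN and 96.4% of WSC reads in introns.

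**Figure D5:**
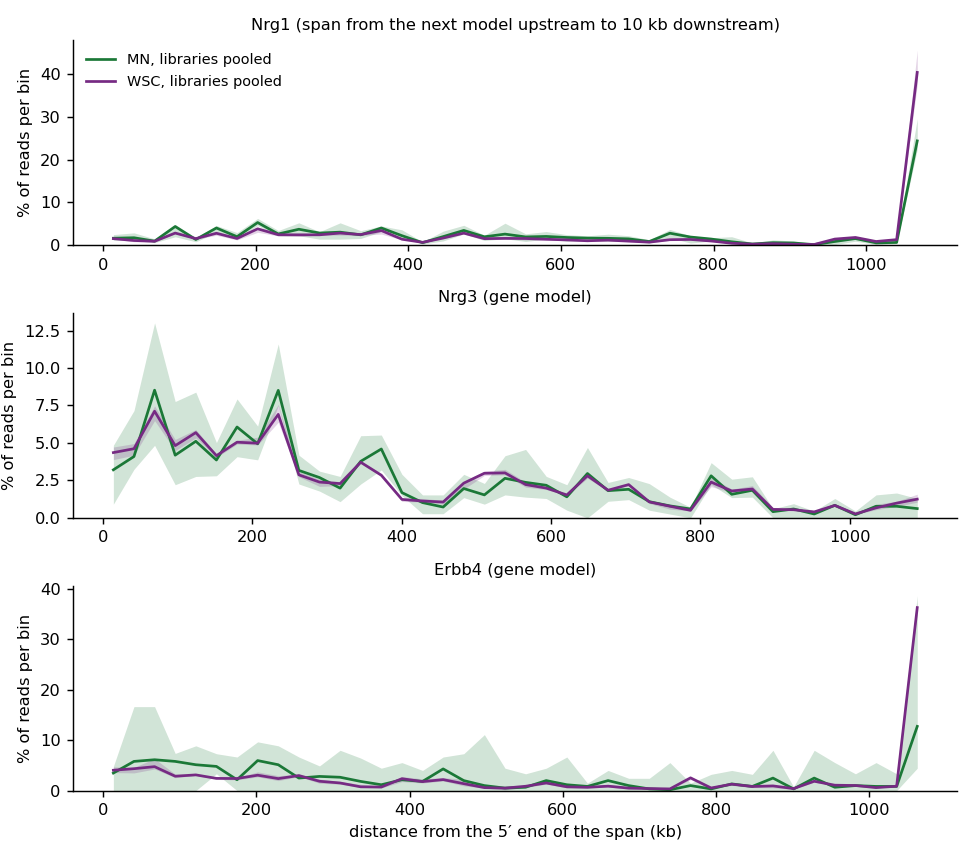
Share of NOVA CLIP reads in each of 40 equal bins along Nrg1 (with both added stretches), Nrg3 and Erbb4, in percent of reads, by distance from the 5′ end of the span in kb. Lines are the pooled MN (green, 8 libraries) and WSC (purple, 4 libraries) reads and bands the lowest and highest library. The span counted with Nrg1 and that of Erbb4 have a peak in the last bin that is lower in the pooled MN reads. For Erbb4 this MN value rests on 77 reads. Its libraries overlap there, at 4.44 to 38.7% in MN and 35.6 to 37.4% in WSC. Nrg3 reads lie mostly in the 5′ part in both groups.

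Reads near the alternative exons that distinguish isoforms were few. The annotation holds 13 such exons in Erbb4, Nrg1, Nrg2 and Nrg3, none of which is among the tabulated cassette exons. In Erbb4, a pair of neighbouring exons encodes the juxtamembrane segment in its form that ADAM17 can cut (JM-a, 75 nt) or in its form that it cannot (JM-b, 45 nt). In Nrg1, a 68-nt and a 59-nt exon end the EGF-like domain in its alpha and beta forms.
Erbb4 JM-a exon (chr1:68336817-68336891, minus strand): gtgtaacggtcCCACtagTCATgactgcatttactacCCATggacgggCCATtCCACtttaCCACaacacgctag
Erbb4 JM-b exon (chr1:68337013-68337057, minus strand): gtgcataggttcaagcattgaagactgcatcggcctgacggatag
Nrg1 alpha exon (chr8:32948733-32948800, minus strand): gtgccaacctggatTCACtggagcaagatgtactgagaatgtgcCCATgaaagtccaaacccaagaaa
Nrg1 beta exon (chr8:32948142-32948200, minus strand): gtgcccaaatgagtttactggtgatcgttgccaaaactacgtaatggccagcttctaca

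Within 400 nt of the JM-a exon, which holds 6 YCAY, there was 1 read in MN and 5 in WSC, all 6 on the exon itself, and the JM-b exon holds 0. Around the 48-nt exon of the ErbB4 tail that binds PI3 kinase there were 0 and 2. The Nrg1 beta exon had 5 MN reads within 400 nt and 50 WSC reads, and all 50 lay in the intron after it, from 4 WSC libraries. The alpha exon had 0 and 2. The 27-nt exon of Nrg3 had 2 and 31, the 31 again all after the exon. No read lay within 400 nt of the Egfr cassette exon, of the 19 MN and 252 WSC reads of that gene.

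Over the 12 CLIP libraries, the genes whose log2 CPM was most like that of Nrg1 included Mrvi1 and Nell1 (Pearson's r of 0.976 and 0.975), and for Erbb4 the nearest were Sort1, AW549877 and Actr2 (0.947, 0.946 and 0.946). These are descriptions over libraries that fall into MN and WSC groups.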

How the data were processed

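The deposited RNA-seq tables hold, per gene, whole-number read counts and the RPKM the authors computed from them, and, per cassette exon, counts of reads on the exon body and its junctions. According to the methods, the authors trimmed reads to 74 nt, mapped them to mm9 with OLego and kept unambiguous reads. The deposited CLIP files list the unique reads the authors mapped to mm9 with Novoalign after removing linkers and primer-derived reads, with a score that was not used. Genes and exons were counted by the authors with Quantas, at settings not given in the sources used here.

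Sense-strand midpoints of CLIP reads were counted on the GENCODE vM1 models (mm9), leaving out reads in several models and chromosome M. MN lines were tested against WSC with edgeR 4.0.16 (glmQLFit, TMM, all 12 libraries) after its filter on low counts, with lines as groups and an FDR of 0.01. DESeq2 1.42.0 was an alternative. Exons were tested by Fisher's exact test (scipy 1.17.1) where each library had 10 or more junction reads, at an FDR of 0.1. For inclusion, the reads on the upstream and downstream junctions were averaged and divided by their sum with the skipping reads. Both tests were tested on simulated data. Replicates are separate samples in the labels, and reads without molecular identifiers in the RNA-seq give intervals that cover counting error only.

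The members and gene lists were chosen with earlier results of these data known. The members were all named, pathway genes were given values where called and otherwise counts and ranges, with the ends of the ranges named, and sites are the most covered position in pooled MN and pooled WSC reads of members with at least 50 reads. Alternatives were no TMM, no filter, DESeq2, exonic reads, a replicate block, each line alone, each library left out, other folds and read minimums and, chosen after seeing the data, an extended gene span, the HISEQ2 libraries alone and exonic reads scaled to their own total. A few genes of the lists are not reported here.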

Additional observations from a re-analysis of the deposited data

Results flagged for a closer look

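In Erbb3, 1 library stood apart from the other 3 of its line in each MN line, with a gap equal to the whole range of the group. These were line 17 replicate 4 at 4.72 CPM and line 6 replicate 3 at 6.64 CPM, from 3 and 2 reads, with 0 reads in each of the other 6 MN libraries. Both are the deepest libraries of their line. Over 22 groups looked at, 2 were found. Where a single library of a group has any read, the gap always equals the range. How often chance gives such a flag was not assessed.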

How the results depend on the processing

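The log2 differences in CLIP of Nrg1, Nrg2, Nrg3 and Erbb4 kept their direction and their side of the FDR of 0.01 under every alternative that could be run, 21 for Nrg1 and Erbb4 and 20 for Nrg2 and Nrg3, which had too few exonic reads for the fit on exons. They ranged from 1.33 to 2.20 for Nrg1, 0.76 to 1.15 for Nrg2, 0.42 to 0.76 for Nrg3 and -1.74 to -0.94 for Erbb4. With the replicate block they were 1.54, 0.94, 0.66 and -1.06. None of the alternatives run for Nrg2 and Nrg3 took account of the lower exonic share of the MN libraries. The exonic reads of Nrg3 alone went the other way, at a log2 difference of -1.27. The shared replicate numbers were not taken to pair samples, since only 3 of 12 same-numbered pairs correlated above 0.1. All 3 were among the 4 pairs between the MN lines (0.05 to 0.19), and the 8 between an MN line and WSC lay from -0.08 to 0.05. Within the MN lines not every library correlated best with its own number, since line 6 replicate 3 had 0.11 with line 17 replicate 3 and 0.17 with replicate 4. The block gave 923 genes higher and 1180 lower. In the HISEQ2 libraries alone, 4 MN against 4 WSC, the differences were 1.62, 0.98, 0.57 and -1.02. Replicates 1 and 2 of both MN lines came from other instruments. Without the filter on low counts 2725 genes were lower, of 17260 tested, and on exonic reads 534 were higher and 559 lower, of 2282. Scaled to exonic reads, an alternative chosen after seeing the data, the exonic log2 difference of Nrg3 no longer passed its exact permutation test, at -0.68, and those of Nrg1 and Erbb4 passed, at 1.33 and -1.92. Leaving out each library gave 922 to 1442 genes higher and 959 to 1501 lower. Of genes differing between the RNA-seq libraries, 489 passed a fold of 2 and 2980 passed 1.5 with no minimum of reads, against 1367. Exon calls fell from 400 to 122 on junction reads alone. Depth limits Egfr, Erbb2 and Erbb3 in CLIP and the Egfr exon in RNA-seq.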
